A study of Mus musculus with 12 samples.

Results

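The mitochondrial genome is a small circle of DNA that mouse cells carry in many copies outside the nucleus. All rows of the feature table on chromosome MT were taken, which gave 37 of the 32101 features: 22 transfer RNAs (tRNAs), 2 ribosomal RNAs (rRNAs) and 13 protein-coding genes. Reads of 20 to 24 nt at these features come from pieces of longer RNAs, since each member is itself longer than the reads. The values came from 12 small RNA-seq libraries of mouse embryonic stem cells (ESCs), pluripotent cells derived from the early embryo and grown in culture. Wild-type cells (WT) gave 6 libraries, Dnmt1 KO cells gave 2 and Dicer/Dnmt1 KO cells gave 4. DNMT1 copies DNA methylation at replication, and DICER cuts hairpins and double-stranded RNA into small RNAs. Titles that match apart from a letter A or B are treated as a pair, which gave 3 pairs in WT, 1 in Dnmt1 KO and 2 in Dicer/Dnmt1 KO. The titles call WT pair 2 "E14 2". Separate growth of A and B is not stated in the labels; if they are repeat libraries of one RNA, the p-values below measure partly technical spread. Every library is labelled E14, whereas the methods describe the Dnmt1 loxP line as C57BL/6, with Dnmt1 removed by tamoxifen-induced Cre. In that line Dicer was targeted by CRISPR/Cas9, either as a conditional allele also removed by Cre or as a constitutive knockout. The study's small RNA-seq figure sets the conditional Dicer/Dnmt1 line against its non-induced cells. The labels do not say which line or control these libraries are. A difference of line between WT and the knockouts cannot be told apart from the genotype, and the day after induction is not in the labels.

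Both strands of the mitochondrial genome are copied by one polymerase into long transcripts that carry rRNAs, tRNAs and messenger RNAs end to end. The tRNAs sit between the other genes like punctuation, and nucleases that cut at their 5′ and 3′ ends release the tRNAs and their neighbours together. The messenger RNAs encode subunits of the respiratory chain and the ATP synthase, and the rRNAs and tRNAs serve the mitochondrial ribosome that translates them.

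Over the 12 libraries, 47852 reads lay at mitochondrial features. The rRNAs took 33625 of them, the protein-coding genes 7507 and the tRNAs 6720. A total of 27 members had at least 1 read and 10 had none in 12 of 12 libraries. These 10 were 5 tRNAs (mt-Ty, mt-Ts1, mt-Td, mt-Tk and mt-Tg) and 5 protein-coding genes (mt-Co2, mt-Atp8, mt-Atp6, mt-Co3 and mt-Nd4l). A count of 0 allows up to 3 reads, worth 12.2 RPM (reads of a feature in a library scaled to 1000000 reads) where depth was greatest and 344.4 RPM where it was least.

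The nuclear genome holds inserted copies of mitochondrial DNA, and a read from a copied stretch has more than 1 place to map. Each member was therefore cut into all windows of 22 bases and each window was looked up in the nuclear chromosomes of the NCBIM37 reference, on both strands and without mismatches. In 14 members, 100% of the windows had an exact nuclear copy. The 10 members without reads were all among these 14. The other 4 (mt-Tw, mt-Tn, mt-Th and mt-Te) held 12, 8, 2 and 3 reads. Windows of 20 and of 24 bases also gave 100% for each of the 14. The remaining 23 members held between 5 reads (mt-Tr, with 72.3% of windows copied) and 18704 reads (mt-Rnr1, with 2.9%). The zeros thus fell on members whose sequence is not unique to chromosome MT, and they give no level of the RNA.

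**Figure D1:**
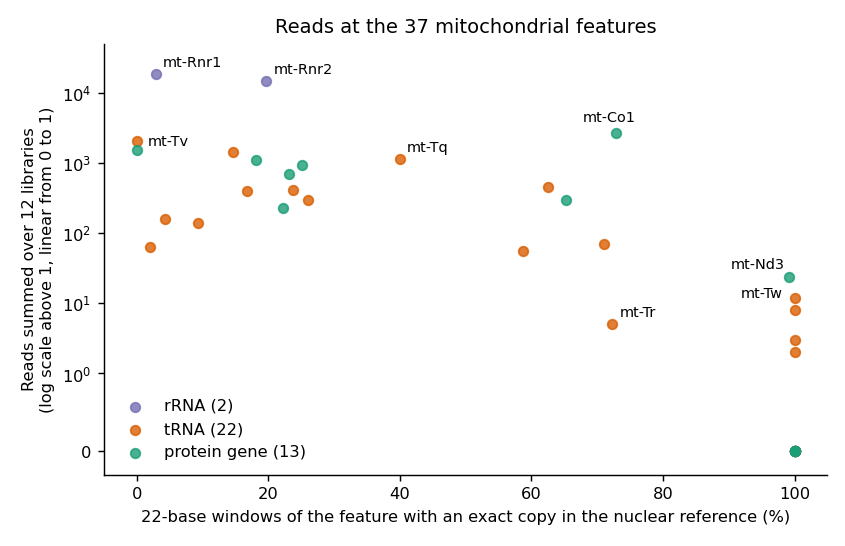
Reads summed over 12 libraries (vertical axis, log scale above 1 and linear from 0 to 1) against the percentage of 22-base windows of each mitochondrial feature with an exact copy in the nuclear reference (horizontal axis); each point is 1 of 37 features, coloured by class. The 10 features without reads overlap at 100%, while mt-Rnr1, mt-Rnr2 and mt-Tv, at 2.9%, 19.7% and 0.0%, carry 18704, 14921 and 2070 reads.

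The longest copied stretch lies on chromosome 1 (NCBIM37, chr1:24618374-24623023) on the strand opposite to the mitochondrial reference. It matches bases 6394 to 11042 of chromosome MT with 1 mismatch and 1 inserted base, an identity of 99.98%. A total of 11 members lie wholly inside it and together held 29 reads. The table also has 2 nuclear features in that copy, Gm10222 and Gm10925, and both had 0 reads in 12 of 12 libraries. How the authors placed reads with several positions is not stated in the sources used here, and its part in these zeros was not tested.

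The tRNAs below show this contrast base by base, with the most read tRNAs first and a pair without reads last. Sequences are those of the NCBIM37 mitochondrial chromosome, 5′ to 3′ on the strand of the tRNA, and capitals mark bases inside a 22-base stretch that also occurs in the nuclear reference.
mt-Tv (valine, chrMT:1025-1093, plus strand, 2070 reads): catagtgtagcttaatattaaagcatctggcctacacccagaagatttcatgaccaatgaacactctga
mt-Tm (methionine, chrMT:3845-3913, plus strand, 1431 reads): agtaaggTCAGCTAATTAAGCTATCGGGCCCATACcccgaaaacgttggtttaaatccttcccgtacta
mt-Tq (glutamine, chrMT:3772-3842, minus strand, 1127 reads): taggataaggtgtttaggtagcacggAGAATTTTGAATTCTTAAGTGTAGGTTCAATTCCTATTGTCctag
mt-Tf (phenylalanine, chrMT:1-68, plus strand, 64 reads): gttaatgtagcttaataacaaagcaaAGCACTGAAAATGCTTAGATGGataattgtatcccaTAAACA
mt-Ty (tyrosine, chrMT:5260-5326, minus strand, 0 reads): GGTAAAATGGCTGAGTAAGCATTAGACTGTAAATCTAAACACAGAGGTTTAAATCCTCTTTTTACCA
mt-Td (aspartate, chrMT:6942-7011, plus strand, 0 reads): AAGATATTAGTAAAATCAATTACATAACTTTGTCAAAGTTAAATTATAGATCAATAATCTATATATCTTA
mt-Tv has no capital, and mt-Ty and mt-Td have no base in lower case. mt-Tm and mt-Tq carry 28 and 41 capitals within 69 and 71 bases. mt-Tf, with 28 of its 68 bases in capitals, had 64 reads, so a mostly unique sequence did not by itself go with many reads.

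To compare levels between members, the RPM of a member was divided by the number of its 22-base windows without a nuclear copy, for the 18 members with at least 20 such windows. Overlap counts can include reads that cross the edge of a member, while the divisor holds only windows wholly inside it. This can raise short members such as tRNAs more than rRNAs, and mt-Tv directly abuts mt-Rnr1 and mt-Rnr2. The order of tRNAs and rRNAs is therefore uncertain. On this per-window scale, averaged over 12 libraries, tRNAs stood at the head: mt-Tv had 39.1 RPM per window, mt-Tq 35.7 and mt-Tm 27.6. The 12S rRNA mt-Rnr1 followed with 15.7, the serine tRNA mt-Ts2 with 12.3 and the 16S rRNA mt-Rnr2 with 9.83. Among protein-coding genes mt-Co1, which encodes the first subunit of cytochrome c oxidase, led with 4.89 RPM per window, and mt-Nd1, a subunit of complex I, followed with 1.35. The lowest were mt-Nd2 (0.710), mt-Nd5 (0.574), mt-Nd6 (0.500) and mt-Nd4 (0.476), subunits of complex I as well. The spread between libraries was wide. In WT, mt-Tv had 44.8 ± 19.7 RPM per window (SD, n = 6), mt-Tm 34.9 ± 35.6, mt-Tq 28.4 ± 12.5 and mt-Rnr1 21.4 ± 28.4. These SDs include the level that all members of a library share, so they do not measure differences between members within a library. mt-Tv and mt-Rnr1 had 18.3 and 3.09 RPM per window in WT 1A but 71.6 and 77.5 in WT 2B. The WT ranges of mt-Co1 (between 1.27 and 24.5) and mt-Nd4 (between 0.242 and 2.02) overlapped, but mt-Co1 was the higher within every library. Adjacent positions did not have like levels: mt-Tf, mt-Rnr1 and mt-Tv follow each other along the genome and had 1.18, 15.7 and 39.1 RPM per window.

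Mitochondrial reads took between 1.27% and 14.3% of library reads. Counts over all features summed to between 85.4% (WT 1A) and 125.3% (WT 1B) of library reads. Shares of library reads are therefore not exact parts of a whole. In WT the share was 1.27% in 1A, 1.90% in 1B, 2.63% in 2A, 14.3% in 2B, 5.43% in 3A and 3.15% in 3B, a mean of 4.78% ± 4.87 (SD, n = 6). Dnmt1 KO A had 1.69% and Dnmt1 KO B had 6.02%. Dicer/Dnmt1 KO 1A had 2.55%, 1B had 1.72%, 2A had 3.65% and 2B had 1.57%, with a mean of 2.38% ± 0.953 (SD, n = 4). The groups overlapped, and WT 2B stood alone at the top. Without E14 2 the WT mean was 2.94%. Over the summed counts of all features, the mean share was 4.23% ± 4.33 (SD, n = 6) in WT. On that base it was 1.38% and 4.93% in Dnmt1 KO and 2.29% ± 0.622 (SD, n = 4) in Dicer/Dnmt1 KO. Counting error was small beside this spread: the widest 95% Wilson interval relative to its share, in Dicer/Dnmt1 KO 1B with 150 mitochondrial reads of 8710, ran from 1.47% to 2.02%. Libraries A and B of 1 pair differed between 1.48-fold (Dicer/Dnmt1 KO pair 1) and 5.44-fold (E14 2), with A higher in 3 pairs and B in 3. In E14 2 the share of library reads differed 6.53-fold for rRNAs, 4.25-fold for protein-coding genes and 2.75-fold for tRNAs. In Dnmt1 KO the same folds were 4.54, 4.15 and 1.05. The study is about DICER, and the loss of microRNAs changes what the rest of a library is divided by: microRNAs took between 29.0% and 69.5% of library reads in WT, 62.7% and 65.4% in Dnmt1 KO and between 6.68% and 12% in Dicer/Dnmt1 KO. Over library reads less the microRNA counts, the mitochondrial share was 9.30% ± 9.99 (SD, n = 6) in WT, 4.90% and 16.1% in Dnmt1 KO and 2.63% ± 1.10 (SD, n = 4) in Dicer/Dnmt1 KO. On this measure both knockouts overlapped with WT, while Dicer/Dnmt1 KO, with at most 4.07%, lay below the 2 Dnmt1 KO libraries.

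**Figure D2:**
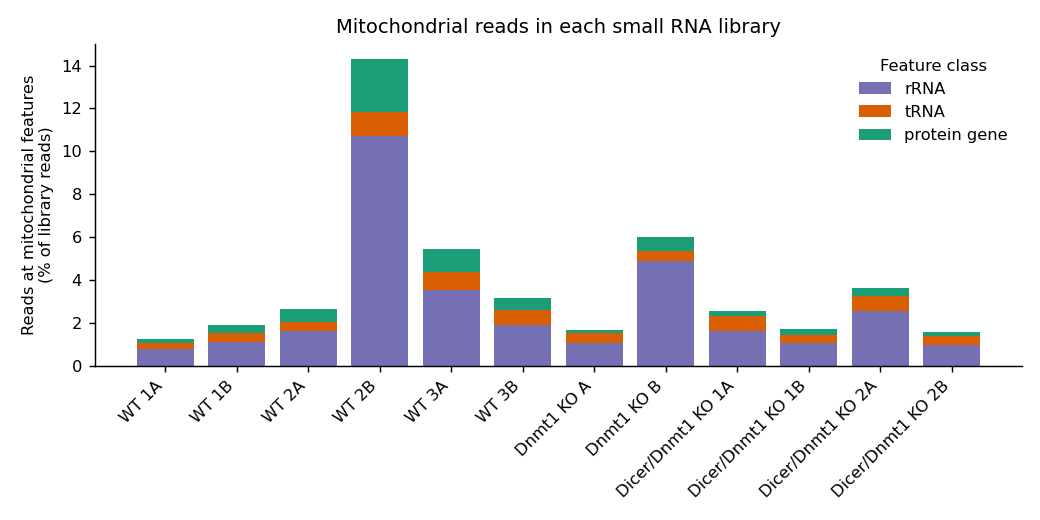
Reads at mitochondrial features as a percentage of library reads (vertical axis) in the 12 libraries (horizontal axis), stacked by feature class. The WT libraries run from 1.27% to 14.3%, and A and B of a pair differ as widely as the groups do.

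Within the mitochondrial reads, the mix of classes needs no scaling between libraries. The rRNAs made up between 58.1% and 80.9% in every library. tRNAs made up 17.9% ± 6.05 in WT (SD, n = 6), 27.1% and 8.02% in Dnmt1 KO A and B, and 23.9% ± 4.67 in Dicer/Dnmt1 KO (SD, n = 4), with overlap between all groups. The lowest tRNA shares, 7.99% and 8.02%, were in WT 2B and Dnmt1 KO B, which also had the highest mitochondrial shares. Protein-coding genes made up between 14.6% and 21.9% in WT, 9.52% and 11.1% in Dnmt1 KO, and between 8% and 15.3% in Dicer/Dnmt1 KO, where only Dicer/Dnmt1 KO 1B, with 23 such reads, reached into the WT range. The ratio of mt-Rnr1 to mt-Rnr2 reads ran from 0.526 to 1.92 in WT, was 0.824 and 1.33 in Dnmt1 KO and ran from 0.254 to 0.763 in Dicer/Dnmt1 KO.

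A few tRNAs dominated their class. mt-Tv, mt-Tm and mt-Tq together held 68.9% of all reads at mitochondrial tRNAs. mt-Tv was between 19.7% and 52.2% of them in every library. mt-Tq, which lies on the strand opposite to most members, was between 10.4% and 19.7% in WT but 40.6% in Dnmt1 KO A and 39.4% in Dicer/Dnmt1 KO 1A, while the B library of the same pairs held 15% and 15.2%. The high shares were thus seen in 1 library of a pair and not in both. The 8 tRNAs of that strand together made up between 16.4% and 48.4% of the tRNA reads. The methods do not say whether counts were separated by strand, so reads from the other strand could be among them. mt-Ts2 made up between 0% (0 of 67 reads in WT 2A) and 11% in WT, 3.23% and 1.35% in Dnmt1 KO, and between 6.11% and 12.1% in Dicer/Dnmt1 KO.

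**Figure D3:**
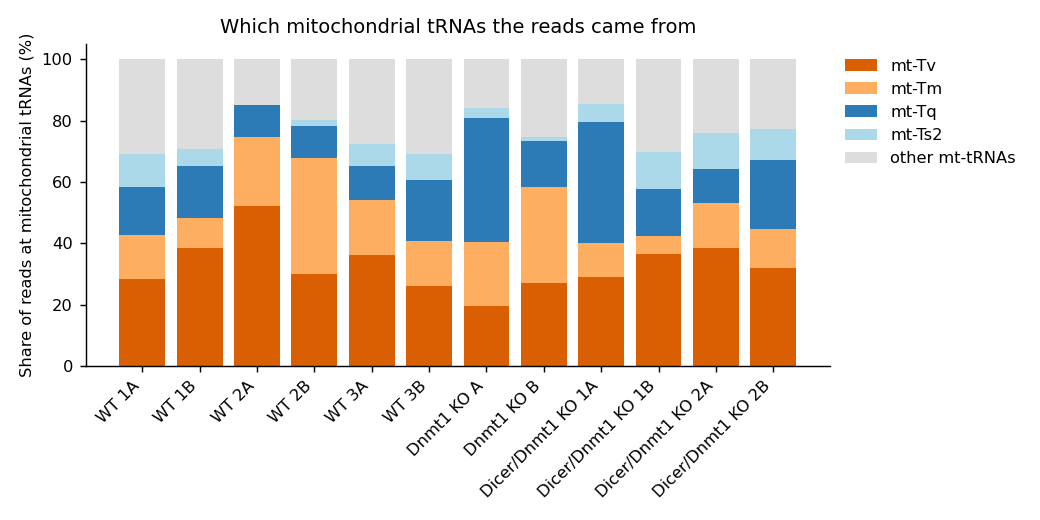
Share of reads at mitochondrial tRNAs (vertical axis, %) that came from mt-Tv, mt-Tm, mt-Tq, mt-Ts2 and the other tRNAs in each of the 12 libraries (horizontal axis). mt-Tq takes 40.6% in Dnmt1 KO A and 39.4% in Dicer/Dnmt1 KO 1A and at most 22.7% in the other libraries.

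Whether the loss of DNMT1, or of DICER with it, went along with another level of these fragments was tested with limma on log2(RPM + 10) after scaling by trimmed means (TMM), for features that reached 111.3 RPM in 2 or more libraries and 15 reads over all of them. Fold changes are on that scale, where the added 10 RPM makes those of members with few reads smaller. A library without reads of a member can enlarge a fold where depth is low, as 1 read is there worth up to 114.81 RPM. A total of 20 members passed (11 tRNAs, 2 rRNAs and 7 protein-coding genes) among 683 features in all. The 17 that did not pass were the 10 without reads and mt-Tw, mt-Tn, mt-Nd3, mt-Tr, mt-Th, mt-Te and mt-Tt, which held between 2 and 55 reads. A filter on level lets a member in through the group where it is high, so the counts below describe these 20 and not all 37. In such bulk libraries, fewer cells of a type and less RNA per cell cannot be told apart.

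In Dicer/Dnmt1 KO against WT, 4 of 20 members passed an adjusted p of 0.05 (Benjamini-Hochberg over 683 features), and all 4 were lower: mt-Co1, mt-Tf, mt-Nd4 and mt-Cytb. Of these, mt-Tf reached 111.3 RPM only in WT libraries and so entered the test through the group where it is high; the other 3 reached it in Dicer/Dnmt1 KO as well. Over all features tested 24.2% were called in this comparison and 19.0% were called lower, so the members' share, 20%, is close to what the whole table gave. The fitted value was below 0 for 19 of 20 members, with a median of -1.40 beside -0.09 over the 683 features. Members of a library share its level, so these 19 are not independent cases. The median was -1.19 for the 11 tRNAs, -1.51 for the 2 rRNAs and -1.83 for the 7 protein-coding genes. Without E14 2 the median of the tested members was -0.80. Scaling by library reads alone moved the median of all features by 0.70 to 0.61 and that of the members to -0.81, and then 2 members were called, mt-Co1 and mt-Tf.

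mt-Co1 (ENSMUSG00000064351, chrMT:5328-6872, plus strand) had 526, 1289, 2664, 10128, 3201 and 1834 RPM in WT 1A to 3B, 443 and 2202 RPM in Dnmt1 KO and 327, 344, 930.2 and 385 RPM in Dicer/Dnmt1 KO. Only WT 1A lay within the range of Dicer/Dnmt1 KO, whose 2A was the highest of its group. The log2 fold change was -3.09 ± 0.80 (SE, adjusted p = 0.01 by limma). It was called in 24 of 25 alternative settings, with adjusted p between 0.000188 (without the filter) and 0.154. The fold ranged from -3.54 to -1.99, with -1.99 without E14 2 (adjusted p = 0.0303 by limma) and -2.26 with library reads alone. The alternative without a call summed A and B of each pair, which left 3 WT, 1 Dnmt1 KO and 2 Dicer/Dnmt1 KO samples. Of the windows of mt-Co1, 72.8% have a nuclear copy, which leaves 414 windows without one.

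mt-Tf, the tRNA at the start of the numbering, had 32.6, 55.2, 124, 128, 125 and 69.5 RPM in WT, 14.8 and 37.2 RPM in Dnmt1 KO and 0, 0, 63.1 and 0 RPM in Dicer/Dnmt1 KO. The Dicer/Dnmt1 KO values rest on 4 reads, all in 2A. In this unscaled RPM, the limit of 3 reads is 122.5 RPM in Dicer/Dnmt1 KO 1A, close to the highest WT levels, and 344.4 RPM in 1B, above all of them. Only the 0 in 2B, with a limit of 19.9 RPM, thus lies under the lowest WT library. On the tested scale the limits in 1A and 1B are lower (TMM factors 1.703 and 1.955), and WT ran from 36.0 to 296 RPM. The log2 fold change was -2.84 ± 0.67 (SE, adjusted p = 0.00523 by limma) with no weight to be put on that p, as the filter let mt-Tf in through WT alone. The fold depended on the pseudocount, with -5.24 for 1 RPM and -1.40 for 50 RPM. mt-Tf passed the filter in 18 of 25 alternatives and was called in 17 of these, with adjusted p between 0.000865 and 0.077.

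mt-Nd4, a complex I subunit, had 114, 124, 186, 956, 346 and 181 RPM in WT, 88.7 and 353 RPM in Dnmt1 KO and 122, 0, 173 and 53.1 RPM in Dicer/Dnmt1 KO. In this unscaled RPM the groups overlapped. After TMM scaling, as in the fit, WT ran from 123 to 1319 RPM and Dicer/Dnmt1 KO from 0 to 111 RPM. The 0 in 1B again falls in the library of 8710 reads. Its log2 fold change was -2.54 ± 0.82 (SE, adjusted p = 0.0346 by limma), and 10 of 25 alternatives called it, with adjusted p between 0.0293 and 0.279. Without Dicer/Dnmt1 KO 1B the fold was -1.76 (adjusted p = 0.122 by limma). mt-Cytb, the cytochrome b of complex III, had 269, 489.6, 496, 3409, 1469 and 924 RPM in WT, 236 and 1106 RPM in Dnmt1 KO and 327, 229.6, 631 and 299 RPM in Dicer/Dnmt1 KO. In unscaled RPM, WT 1A, 1B and 2A lay among the Dicer/Dnmt1 KO values. After TMM scaling only WT 1A did, with 297 RPM beside 117 to 405 RPM in Dicer/Dnmt1 KO. Its log2 fold change was -2.06 ± 0.70 (SE, adjusted p = 0.0485 by limma), and 3 of 25 alternatives called it, with adjusted p between 0.017 and 0.333. The calls of mt-Nd4 and mt-Cytb rest on WT 2B among others: without E14 2, only mt-Co1 was called, and without WT 2B alone the count was also 1. With the pair as a random block the count was 2, and with A and B summed it was 0.

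Of the 5 members with the highest mean RPM, mt-Co1 was called and the other 4 were not. mt-Rnr1 (chrMT:70-1024, plus strand) had 2802, 3813, 9726, 70289.9, 21077 and 8783 RPM in WT, 4846 and 27768 RPM in Dnmt1 KO and 3267, 3674, 11178 and 3517 RPM in Dicer/Dnmt1 KO. WT 2B was far above every other library here, and the other WT libraries overlapped with both knockouts. The log2 fold change in Dicer/Dnmt1 KO against WT was -2.03 ± 0.89 (SE, adjusted p = 0.129 by limma). With all features kept, limma called mt-Rnr1 (adjusted p = 7.31e-09) and mt-Rnr2 (0.0263) at the same folds, with SE of 0.30 and 0.27. The filtered fit gave SE of 0.89 and 0.60 from the same values. The smaller SE thus come from limma's variance trend over the features kept, and these p-values do not measure the spread between libraries. mt-Rnr2 (chrMT:1094-2675, plus strand) had 4927, 7247, 6629, 36561, 14453 and 10429 RPM in WT, 5881 and 20928 RPM in Dnmt1 KO and 12862, 7118, 14647 and 6165 RPM in Dicer/Dnmt1 KO, with a log2 fold change of -0.99 ± 0.60. mt-Tv had 877, 1614, 2168, 3438, 3035 and 1772 RPM in WT, 901 and 1310.3 RPM in Dnmt1 KO and 2123, 1378, 2569.8 and 1334 RPM in Dicer/Dnmt1 KO, with -0.99 ± 0.49. mt-Nd1 had 436, 676, 1301, 4693, 2383 and 1258 RPM in WT, 310.3 and 1264 RPM in Dnmt1 KO and 408, 918, 1025 and 511 RPM in Dicer/Dnmt1 KO, with -1.83 ± 0.69 (adjusted p = 0.0737 by limma).

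**Figure D4:**
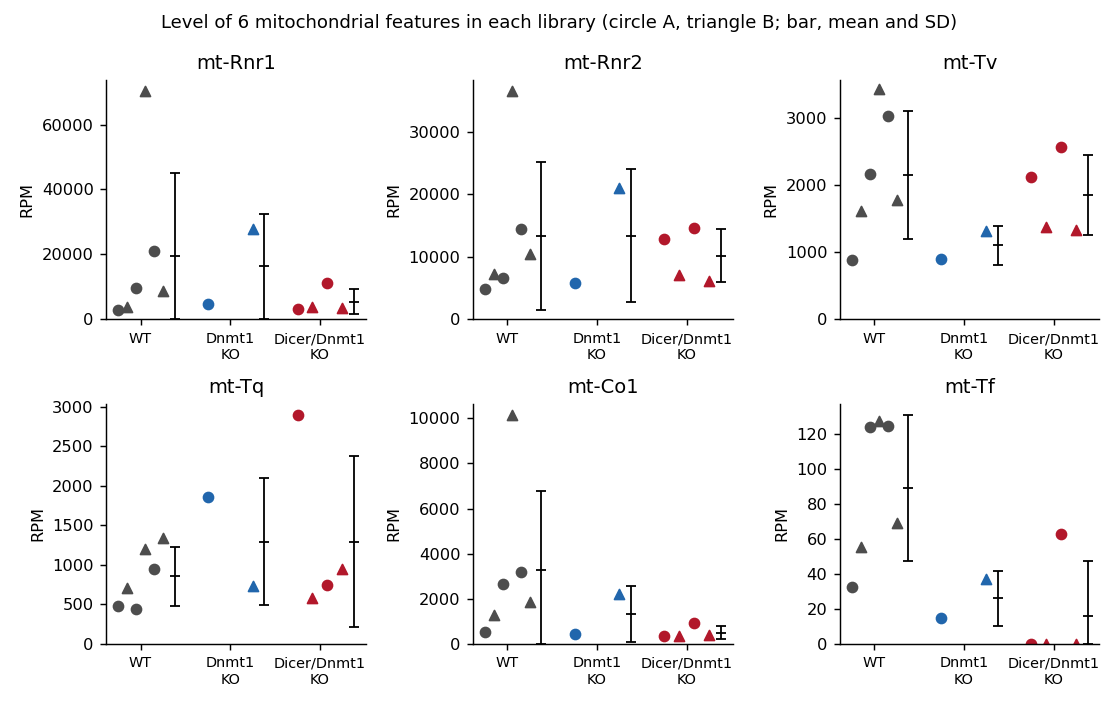
RPM (vertical axis, linear from 0) of mt-Rnr1, mt-Rnr2, mt-Tv, mt-Tq, mt-Co1 and mt-Tf in each library of WT, Dnmt1 KO and Dicer/Dnmt1 KO, with circles for A, triangles for B, and the mean with its SD (n = 6, 2 and 4; lower bars stop at 0) beside each group. WT 2B is the highest mt-Rnr1, mt-Rnr2 and mt-Co1 library, and Dicer/Dnmt1 KO 1A the highest for mt-Tq at 2899 RPM.

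Among the other tRNAs, mt-Tl1 (leucine) fell just short of a call with a log2 fold change of -1.74 ± 0.61 (adjusted p = 0.0531 by limma), followed by mt-Tm with -1.69 ± 0.71, mt-Tp (proline) with -1.35 ± 0.80, mt-Tc (cysteine) with -1.24 ± 0.83 and mt-Ta (alanine) with -1.19 ± 0.48. Without Dicer/Dnmt1 KO 1B, where mt-Tl1 and mt-Tp had no reads, their folds were -0.95 and -0.44. mt-Tl2, the other leucine tRNA, was at -1.05 ± 0.49 and mt-Ti (isoleucine) at -0.82 ± 0.50. mt-Tq was at -0.43 ± 0.52 and turned to 0.41 when library reads alone set the scale. mt-Ts2 was the 1 member with a value above 0, at 0.75 ± 0.95, and fell to -0.04 without E14 2, where WT 2A had 0 reads of it. The remaining protein-coding genes were complex I subunits, with -1.79 ± 0.66 for mt-Nd5, -1.46 ± 0.59 for mt-Nd6 and -1.32 ± 0.66 for mt-Nd2. mt-Nd6 lies on the opposite strand and shares 14 bases with mt-Nd5, and the methods do not say whether the counts were separated by strand.

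**Figure D5:**
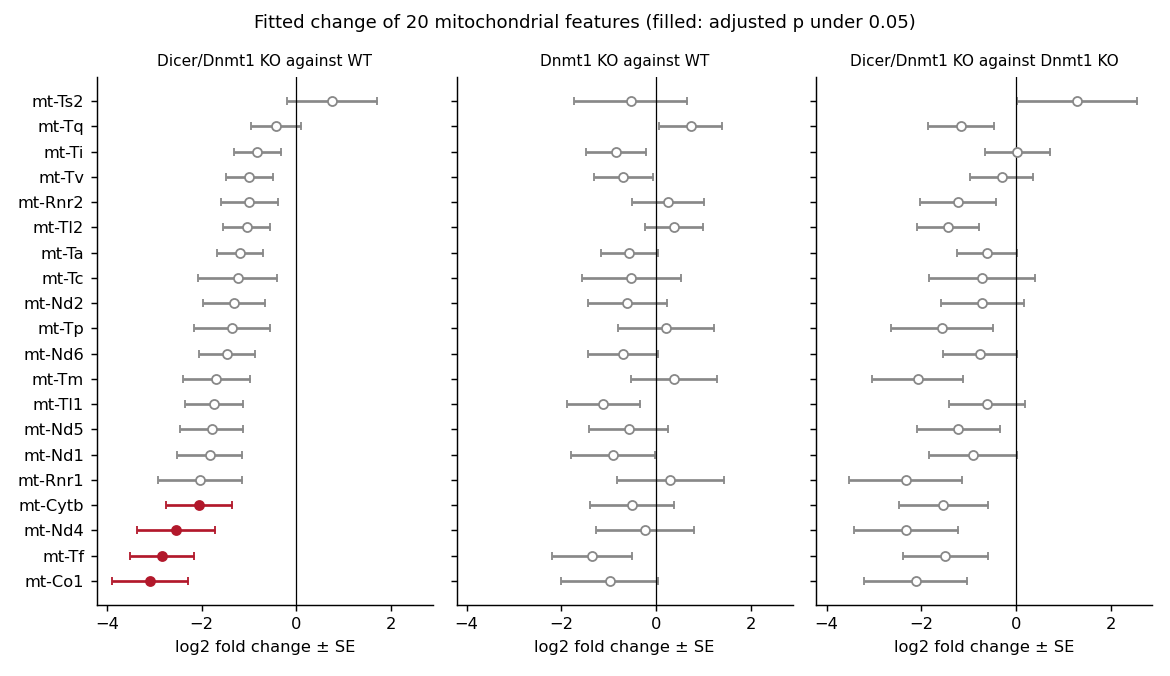
Fitted log2 fold change with its SE (horizontal axis, on the log2(RPM + 10) scale) of the 20 mitochondrial features tested (vertical axis), in the 3 comparisons. Filled points passed an adjusted p of 0.05: 4 of 20 in Dicer/Dnmt1 KO against WT and 0 of 20 in each of the other comparisons.

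In Dnmt1 KO against WT, 0 of 20 members were called by limma, beside 6.88% of all features tested. At an unadjusted p under 0.05 the count was 0, and limma with voom weights called 0 with 2 under an unadjusted 0.05. Fitted values ran from -1.35 ± 0.84 (mt-Tf) to 0.73 ± 0.66 (mt-Tq), with 14 below 0 and 6 above and a median of -0.56 beside 0.13 over all features. The members' median was 0.30 without Dnmt1 KO A and -0.84 without Dnmt1 KO B. It was -0.10 without E14 2 and 0.00 with A and B summed. mt-Co1 was at -0.98 ± 1.02 and mt-Rnr1 at 0.30 ± 1.13. The 2 Dnmt1 KO libraries differed 3.56-fold in mitochondrial share. Without E14 2, mt-Ts2 alone was called, at -1.67 with an adjusted p of 0.0361 by limma.

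Dicer/Dnmt1 KO against Dnmt1 KO bears on what the loss of DICER adds to that of DNMT1. Again 0 of 20 members were called by limma, beside 22.8% of all features. At an unadjusted p under 0.05 the count was 2, and voom weights called 0 with 3 under an unadjusted 0.05. Fitted values ran from -2.33 ± 1.20 (mt-Rnr1) to 1.29 ± 1.27 (mt-Ts2), 18 below 0 and 2 above, with a median of -1.19 beside -0.16 over all features. With library reads alone these medians were -0.21 and 0.75. The members' median was -1.77 without Dnmt1 KO A and -0.36 without Dnmt1 KO B. mt-Co1 was at -2.12 ± 1.08, mt-Tf at -1.49 ± 0.90 and mt-Tq at -1.16 ± 0.70. mt-Ts2 had 148 and 65.1 RPM in Dnmt1 KO (10 and 7 reads). In Dicer/Dnmt1 KO it had 449, 459, 788 and 418 RPM (11, 4, 50 and 63 reads). After TMM scaling the values were 202 and 85.2 against 264, 235, 507 and 414 RPM. mt-Ts2 was called without E14 2 (1.63, adjusted p = 0.0313 by limma) and without WT 2A (1.60, adjusted p = 0.0428 by limma). This comparison and the one with WT share the Dicer/Dnmt1 KO libraries, and those of Dnmt1 KO are shared with the previous one.

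One pattern within the protein-coding genes was seen only after the values were known and carries no test. mt-Co1 made up between 28.3% and 46.2% of their reads in WT, 27.5% in Dnmt1 KO A and 32.9% in B. The shares with DICER lost as well were 16% in 1A, 13% in 1B, 23.3% in 2A and 20.4% in 2B, from 8, 3, 59 and 58 mt-Co1 reads. The Dicer/Dnmt1 KO libraries lay below the others in all 4 cases, in a measure that does not depend on scaling between libraries.

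Nuclear genes for mitochondrial RNA gave little to set beside this. Of 48 listed genes for transcription, processing, modification, stability and translation of mitochondrial RNA and for tRNA cleavage, 46 were in the table, 39 had reads and 0 passed the filter, with 277 reads in all and at most 12 for 1 gene in 1 library. Dnmt1 itself had between 0 and 18 reads in WT, 8 and 9 in Dnmt1 KO and between 2 and 6 in Dicer/Dnmt1 KO, and Dicer1 at most 3 in any library, so these small RNA counts cannot check the deletions. Of 10 tested ESC microRNAs (miR-290 and miR-302 clusters), 10 were called lower in Dicer/Dnmt1 KO against WT, where 19.0% of all features were. microRNAs are cut by DICER, so this fall was set by the genotype and cannot check the cell type. Mir302b, with 1, 0, 0 and 0 reads in Dicer/Dnmt1 KO, also entered the test through WT. Over all 12 listed, the summed level was between 28683 and 93275 RPM in WT, 55926 and 99648 RPM in Dnmt1 KO, and between 1221 and 3797 RPM in Dicer/Dnmt1 KO. Most of these reads were Mir292 and Mir295 (25781 and 24815 of 69872), so the sum says little about the miR-302 cluster. Mir302a had 7 and 6 reads in Dnmt1 KO A and B and between 5 and 127 in WT, and Mir302c and Mir367 had 0 in both Dnmt1 KO libraries. Of the 10 tested, 0 were called in Dnmt1 KO against WT. microRNAs known from fibroblasts, the usual feeder cells, summed to between 333 and 1115 RPM in WT, 5364 and 7053 RPM in Dnmt1 KO and between 4419 and 15056 RPM in Dicer/Dnmt1 KO. Nearly all of these were Mir143, 3350 of 3385 reads; 4 of the 5 listed genes in the table had reads and Mir199a-1 was at 0. The methods describe culture with or without feeders and do not say which library had them. This signal was higher in both knockout groups, and its part in the mitochondrial values was not tested.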

How the data were processed

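Small RNA-seq of 12 mouse ESC libraries was analysed. As the labels and methods describe, the authors trimmed reads (Trim Galore 0.3.5), kept 20 to 24 nt, mapped them to NCBIM37 (Bowtie2 2.2.6) and took overlap counts in SeqMonk. The deposited values are log2 RPM with 0 reads written as 0.9 read, so the column minimum gave back whole reads for 100.0% of values (tolerance 0.01 read). A further 89 value columns belong to no sample here and were not used. Gene types came from GENCODE on Ensembl 65 (the study used 67). Depth was between 8710 and 245184 reads, and 1 read was worth 4.08 to 114.81 RPM. Intervals and the limit of 3 reads cover counting error only, as reads carry no molecular identifiers.

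TMM scaling cut 30% of the log ratios and 5% of the abundances. limma 3.58.1 under R 4.3.3, with its trend option, fitted 1 model for 3 groups with Benjamini-Hochberg at 0.05. edgeR was not used because the deposited unit is a log value, and voom weights on whole reads came nearest to a count test. Spearman correlations of A with B were between 0.778 and 0.951, and all 12 libraries were kept apart. The fit was tested on simulated data. Members that passed the filter are named with their values, the 5 most abundant and all called members with the value in every library. Exact 22-base matches were searched in the nuclear reference with Python. The members and lists were chosen with earlier results of these data known. Alternatives covered scaling, pseudocount, filter, weights, left-out libraries, summed pairs and blocks. Shares were described without a test.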

Additional observations from a re-analysis of the deposited data

Results flagged for a closer look

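Within a group of 4 or 6 libraries, a library was singled out when its gap to the next one was too large a part of the group's range (Dixon's 95% limit). Of 48 such groups, 13 gave a library of this kind. Dixon's limit assumes normally distributed values, which RPM need not follow, so no chance rate is set beside this count. WT 2B was the highest WT library in 6 of them: 14.3% of library reads were mitochondrial there, with 70289.9 RPM at mt-Rnr1, 36561 RPM at mt-Rnr2, 4301 RPM at mt-Tm, 10128 RPM at mt-Co1 and 956 RPM at mt-Nd4. Dicer/Dnmt1 KO 2A was the highest of its group with 63.1 RPM at mt-Tf, 11178 RPM at mt-Rnr1, 631 RPM at mt-Ta, 930.2 RPM at mt-Co1 and 788 RPM at mt-Ts2. For mt-Tf the rest of the group had no reads, and the limit of 3 reads in 1A and 1B, 122.5 and 344.4 RPM, lies above 63.1 RPM. Dicer/Dnmt1 KO 1A was the highest for mt-Tq with 2899 RPM and the lowest for mt-Tl2 with 81.7 RPM, the latter from 2 reads. The members share a library, so these are not independent cases.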

How the results depend on the processing

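In Dicer/Dnmt1 KO against WT, 4 members were called, 2 with library reads alone, 2 with a pseudocount of 1 RPM, 2 with the pair as a random block, 2 with a replicate block of number and letter, 1 without E14 2, 0 with A and B summed, and between 1 and 6 when 1 library was left out (1 without WT 2B, Dnmt1 KO B or Dicer/Dnmt1 KO 2B, and 6 without WT 1A). The other alternatives called 3 to 5, among them the fit without the filter, which called mt-Rnr1 and mt-Rnr2 in place of mt-Nd4 and mt-Cytb. Calls of the rRNAs without the filter rest on the variance trend over the features kept and do not measure the spread between libraries. With 22 members tested and 3 residual degrees of freedom, the summed fit has fewer samples by construction. In Dnmt1 KO against WT the count was 1 without E14 2 and 0 otherwise. In Dicer/Dnmt1 KO against Dnmt1 KO it was 1 without the filter (mt-Rnr1), 1 without E14 2, between 0 and 1 when 1 library was left out (1 without WT 2A), and 0 otherwise.

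Numbers are shared by WT and Dicer/Dnmt1 KO libraries, but same-numbered libraries did not deviate together (correlations between -0.285 and 0.112, 0 of 4 best with their own number). With so few pairs and unlike depths, this check cannot exclude a shared preparation. A replicate block of number and letter called 2 members in Dicer/Dnmt1 KO against WT and a replicate block of the letter called 3.

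Named values that turned sign were not called in any of the fits concerned, and the cause was not tested. For Dicer/Dnmt1 KO against WT, mt-Tq became 0.41 with library reads alone, 0.01 without E14 2, 0.11 with A and B summed and between -0.84 and 0.11 when 1 library was left out, and mt-Ts2 became -0.04 without E14 2. For Dnmt1 KO against WT, leaving out 1 library gave mt-Co1 between -2.01 and 0.40 and mt-Rnr1 between -0.84 and 1.79. Over all tested members the sign changed in 5 of 485 alternative values in Dicer/Dnmt1 KO against WT, 24 of 465 in Dnmt1 KO against WT and 19 of 465 in Dicer/Dnmt1 KO against Dnmt1 KO, none of them called.

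The mean mitochondrial share stayed within 1 SD of its value, except in Dnmt1 KO, where it rose from 3.86% to 10.5% over library reads less the microRNA counts. Leaving out 1 library gave between 2.88% (without WT 2B) and 5.48% in WT, 1.69% and 6.02% in Dnmt1 KO, and between 1.95% and 2.64% in Dicer/Dnmt1 KO. The mean tRNA share of mitochondrial reads moved by less than 1 SD in every alternative. Depth limits members with few reads, since 1 read in Dicer/Dnmt1 KO 1B is worth 114.81 RPM.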
